A study of Mus musculus with 6 samples.

Results

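The sites described here are the 2′-O-methylated nucleotides of 28S rRNA whose human position lies between 2000 and 3500 and for which a guide snoRNA is assumed. All sites of that stretch in the authors' list of rRNA methylation sites were taken, which gave 15 of 66 listed 28S sites, besides 40 listed sites in 18S and 2 in 5.8S rRNA. In the mouse 28S sequence they lie between positions 2109 and 2634, in a first cluster of LSU-C2338, LSU-A2350, LSU-G2351, LSU-C2352, LSU-A2388, LSU-U2402, LSU-C2409 and LSU-G2411, and a second one of LSU-A2774, LSU-C2791, LSU-A2802, LSU-C2811, LSU-U2824, LSU-C2848 and LSU-G2863. Names carry the nucleotide and its human position.

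The study asked whether loss of neuronal SNORDs alters rRNA methylation in the mouse brain. Whole-cell RNA of 6 whole brains was examined by RiboMeth-seq. The brains came from 3 adult Snord115-KO mice and from 3 embryos at E16.5 lacking both Snord115 and Snord116, so that the adult and the embryonic group share the loss of Snord115 and differ in age and in Snord116 at once. Per the methods the Snord115 deletion was made with CRISPR-Cas9 in zygotes and was studied after paternal transmission, the allele from which these imprinted genes are expressed. The line without both arrays was not described further. A legend and the methods speak of adult brains only, whereas the sample labels and the study's results text place the brains without both arrays at E16.5, which is followed here. WT littermates enter only as the authors' mean scores. Age, genotype and library preparation cannot be told apart between the adult and E16.5 brains. The p-values set the difference between the groups against the spread between these brains.

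A methyl group on the 2′ oxygen of the ribose protects the adjacent phosphodiester bond from alkaline cleavage. The mark is placed in the nucleolus by fibrillarin, carried to its target by box C/D snoRNAs. Each snoRNA pairs with the rRNA through an antisense element next to its box D or to the internal box D′, and the nucleotide methylated is the one paired with the fifth snoRNA nucleotide before that box. Most guides of this kind are released from introns of genes for ribosomal proteins and of non-coding host genes such as Gas5 and the Snhg genes.

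Where methylated nucleotides lie next to each other, each is a neighbour in the measurement of the others. The following windows of mouse 28S rRNA, as given in the deposited tables, show these close sites and 2 isolated sites, LSU-A2774 and LSU-C2848, at which the adult and E16.5 fractions did not overlap. Capitals mark the listed nucleotides.
LSU-A2350, LSU-G2351 and LSU-C2352, positions 2111 to 2133: uggugguaguAGCaaauauucaa
LSU-C2409 and LSU-G2411, positions 2170 to 2192: augugaacagCaGuugaacaugg
LSU-A2774, positions 2535 to 2555: ggccguacccAuauccgcagc
LSU-C2848, positions 2609 to 2629: gucggcaagcCggauccguaa

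Guides were sought by letters alone among 785 annotated mouse snoRNA genes not named as box H/ACA. Genes over 400 nt and those of a chromosome that was left out were not searched. The box was read as CTGA with up to 1 other letter on the snoRNA strand. A score of 9 or more was asked for, counted as 1 for each unbroken pair around the fifth nucleotide before the box, less 2 for each G-U pair and less 2 for another letter in the box. Such an element was found for 13 of the 15 sites and for 49 of the 66 listed 28S sites (74.2%), against 1.26% of the 4665 unlisted 28S positions. No match was found for LSU-G2351 and LSU-U2402. A match is a description of letters and not proof of guiding, and no match says only that these letters were not among the genes searched. None of the 132 Snord115 genes and none of the 69 Snord116 genes searched had such an element for any of the 15 sites. None of the 13 best matches lay within Snhg14, the host transcript of the deleted arrays.

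The elements for the close sites and for these isolated sites are given from RefSeq gene coordinates of GRCm38.p6, 5′ to 3′ on the strand of the snoRNA, with the paired stretch in capitals and the box as the last letters.
Gm23969 (SNORD24) at LSU-C2352: GAATATTTGCTATcaga
LOC115487638 (Gm22357) at LSU-A2350: ATATTTGCTACTcttga
LOC115487311 (SNORD5) at LSU-C2409: TGTTCAACTGCTGaatga
LOC115487272 (Z40) at LSU-G2411: ATGTTCAACTGCTctga
Snord99 at LSU-A2774: TGCGGATATGGGactga
Snord50b at LSU-C2848: TTACGGATCTGGCTTctga

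The elements of SNORD5 and Z40 shared 12 nucleotides of rRNA, and each formed 13 pairs. Both genes are on chromosome 9, at chr9:15314074-15314144 and chr9:15315522-15315595 (+ strand), within the gene Taf1d. The elements for LSU-A2350 and LSU-C2352 shared 11 rRNA nucleotides. The guide of LSU-A2350 lies in Gas5 at chr1:161036057-161036139 (+ strand), and RefSeq also gives it the product name SNORD24. Gm23969, at chr2:26911261-26911334 (+ strand) in the gene Rpl7a, carried a second element, next to box D, for LSU-C2338. Snord95 and Gm25296, which RefSeq names SNORD95 and which also lies in Rack1, each matched both LSU-A2802 and LSU-C2811. Snord50b in Snhg5, at chr9:88521797-88521868 (− strand), matched LSU-C2848 with 15 pairs and LSU-G2863 with 9 pairs. It was 1 of 5 SNORD50 genes with the same score at these sites, so that the copy in use cannot be told from the letters. Snord68 in Rpl13 matched LSU-A2388, and Snord34 in Rpl13a matched LSU-U2824. Snord99, at chr4:132310703-132310758 (+ strand), lies in Snhg12.

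The methylated fraction of a site is 1 minus the 5′ and 3′ read ends at the nucleotide over the number expected from 6 neighbours on each side. Expected read ends at the 15 sites were between 814 and 11956 in a brain, and total read ends between 9621368 and 20064865, so that each fraction rests on 13 to 538 observed ends. All 15 sites were methylated to a high level in both groups. The mean fraction was 0.75 or more at 15 of 15 sites in adult Snord115-KO brains and at 15 of 15 in E16.5 brains. The median of the site means was 0.978 in adult and 0.964 in E16.5 brains, and the 51 other listed 28S sites had medians of 0.962 in adult and 0.923 in E16.5 brains. A mean of 0.95 or more was reached by 13 of the 15 sites in adult and by 9 in E16.5 brains, and by 34 and 18 of the other 51 sites in adult and E16.5 brains. By brain, the median over the 15 sites was 0.974, 0.984 and 0.976 in adult and 0.954, 0.952 and 0.971 in E16.5 brains. It was above that of the other 28S sites in each of the 6 brains.

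The fraction also has a background. Among the 511 unlisted positions between LSU-C2338 and LSU-G2863, none reached 0.75 in all 6 brains, but 20 did so in at least 1 brain. The median of their mean over the 6 brains was 0.111. The highest, a G at mouse position 2221, averaged 0.792 with a range from 0.540 to 0.929. The lowest fraction of any of the 15 sites in any brain, 0.774 at LSU-C2409, lay within the range of that unlisted position. So did other values, among them those of LSU-G2411 in E16.5 brains (0.868 to 0.877) and of LSU-C2848 in adult brains (0.905 to 0.918). LSU-C2409 in 2 brains aside, no site fell below 0.86 in any brain.

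LSU-G2351 was the most methylated of the sites in both groups. Its fraction was 0.997, 0.998 and 0.992 in adult brains and 0.995, 0.995 and 0.992 in E16.5 brains, with 13 to 19 observed read ends in an adult brain and 24 to 51 in an E16.5 brain. Its range lay above that of the site next in rank in both groups, but in adult brains not above those of all other sites. Its immediate neighbours were LSU-A2350, at 0.990, 0.990 and 0.977 in adult brains and 0.985, 0.968 and 0.973 in E16.5 brains, and LSU-C2352, at 0.981, 0.974 and 0.957 in adult brains and 0.972, 0.952 and 0.969 in E16.5 brains. The groups overlapped at each of the 3 adjacent nucleotides. The protection of the neighbours lowers the expected read ends. When listed sites were left out of the neighbours, the mean of LSU-C2352 was 0.977 in adult and 0.972 in E16.5 brains, against 0.971 in adult and 0.964 in E16.5 brains with them, and LSU-A2350 and LSU-G2351 moved by less.

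Below LSU-G2351 the sites formed a nearly continuous order. Of the 14 pairs of neighbours in that order, the ranges of 12 overlapped in adult and of 13 in E16.5 brains. In adult brains the only other neighbours in rank without overlap were LSU-G2863, at a mean of 0.955, and LSU-C2848, at 0.911. The values themselves had no such gaps in adult brains. LSU-C2409 reached 0.943, above the lowest value of LSU-G2863 (0.939), and LSU-A2802 reached 0.9927, above the lowest of LSU-G2351 (0.9924). The lowest sites were LSU-C2409 and LSU-C2848 in adult brains, with means of 0.873 ± 0.088 and 0.911 ± 0.006 (SD, n = 3), and LSU-G2411 and LSU-C2409 in E16.5 brains, with means of 0.872 ± 0.004 and 0.880 ± 0.064 (SD, n = 3). LSU-G2411 ranked 12 of 15 in adult and last in E16.5 brains.

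LSU-G2411 was the 1 site of the 15 that differed between adult and E16.5 brains in the test across all listed sites. Its fraction was 0.972, 0.953 and 0.966 in adult Snord115-KO brains and 0.868, 0.871 and 0.877 in E16.5 Snord115-Snord116-KO brains. The groups were far apart and each was tight. Read ends at this G numbered 98, 164 and 85 against 3476, 3456 and 2480 expected in adult brains, and 332, 161 and 538 against 2514, 1249 and 4361 expected in E16.5 brains. The unprotected share changed by −1.80 ± 0.36 on the log2 scale (SE, adult over E16.5), or 0.286-fold, with an adjusted p of 0.0136 in edgeR's quasi-likelihood test. The difference was seen on either kind of read end. From 5′ ends alone the fraction was 0.969, 0.957 and 0.968 in adult and 0.856, 0.853 and 0.816 in E16.5 brains, and from 3′ ends alone 0.973, 0.950 and 0.964 in adult and 0.870, 0.892 and 0.907 in E16.5 brains. The 3′ ends alone did not pass the threshold (adjusted p = 0.123, edgeR). The authors' WT means moved alike, at 0.966 ± 0.015 in adult and 0.845 ± 0.039 in E16.5 brains (authors' SD). At E16.5 the authors' SD of the KO brains was 0.0036.

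Across all listed sites, 26.9% passed the threshold, 25.9% higher and 0.926% lower in the adult, so that the count of 1 in 15 sites, in the higher direction, was under the background. Without a test, 5 of the 15 sites had every adult fraction above every E16.5 fraction, where all listed sites gave 38.9%, and 1 had every adult fraction below, where all listed sites gave 3.7%. The mean was higher in adult brains at 13 of the 15 sites (86.7%) and at 88.0% of all listed sites. The median difference, adult minus E16.5, was 0.013 over the 15 sites and 0.024 over all listed sites.

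LSU-C2848, matched by Snord50b, went the other way. It measured 0.918, 0.911 and 0.905 in adult brains and 0.949, 0.949 and 0.944 in E16.5 brains. The groups did not overlap and the SD was 0.006 in adult and 0.003 in E16.5 brains. The log2 change of its unprotected share was 0.75 ± 0.30 (SE), with an adjusted p of 0.105 in edgeR. On 5′ ends alone it was 0.932, 0.924 and 0.901 in adult and 0.952, 0.957 and 0.957 in E16.5 brains, whereas on 3′ ends the groups overlapped, at 0.890, 0.850 and 0.919 in adult and 0.940, 0.853 and 0.864 in E16.5 brains. LSU-G2863, matched by the same snoRNA at box D′, gave 0.939, 0.970 and 0.954 in adult brains and 0.866, 0.972 and 0.985 in E16.5 brains. Its E16.5 brain 1 was low and the groups overlapped. The log2 change of its unprotected share was −0.35 ± 0.81 (SE, adjusted p = 0.745 in edgeR), and 1.10 without that brain.

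LSU-A2774, matched by Snord99, had the second lowest adjusted p. Its fraction was 0.964, 0.984 and 0.986 in adult brains and 0.862, 0.947 and 0.953 in E16.5 brains. The groups did not overlap, and E16.5 brain 1 stood lowest. The log2 change was −1.81 ± 0.58 (SE) and the adjusted p 0.0583 in edgeR. Without adult brain 1 the log2 change was −2.37 and the site passed the threshold, as did LSU-C2791 (−1.65). Most of the distance came from the 3′ ends, which gave 0.886, 0.985 and 1 in adult and 0.743, 0.902 and 0.931 in E16.5 brains, while 5′ ends gave 0.985, 0.984 and 0.982 in adult and 0.970, 0.979 and 0.973 in E16.5 brains.

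Another 3 sites had every adult fraction above every E16.5 one without passing the test; like LSU-C2848 they are named after their values were seen. LSU-U2402, for which no guide was matched, gave 0.987, 0.984 and 0.986 in adult and 0.979, 0.946 and 0.975 in E16.5 brains (adjusted p = 0.0769, edgeR). LSU-U2824, matched by Snord34, gave 0.981, 0.978 and 0.980 in adult and 0.954, 0.976 and 0.969 in E16.5 brains (adjusted p = 0.119, edgeR). LSU-C2338 gave 0.978, 0.987 and 0.976 in adult and 0.972, 0.960 and 0.971 in E16.5 brains (adjusted p = 0.133, edgeR). In each the distance between the groups was at most 0.019 in the means. The other sites, LSU-A2388, LSU-C2791, LSU-A2802 and LSU-C2811 besides those above, overlapped between groups, with adjusted p from 0.273 to 0.493 for these 4.

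LSU-C2409, only 2 nucleotides before LSU-G2411 and matched by the neighbouring gene SNORD5, did not share its difference in the deposited fractions. Its fraction was 0.943, 0.900 and 0.774 in adult brains and 0.900, 0.808 and 0.931 in E16.5 brains. The spread within each group was the widest of the 15 sites in adult brains and nearly so in E16.5 brains, and the groups overlapped (log2 change 0.08 ± 0.66, SE, adjusted p = 0.924 in edgeR). Without adult brain 3 the log2 change was −0.62, and it was below 0 also without E16.5 brain 1 (−0.03) or 3 (−0.19). The spread came from the 3′ ends. They gave 0.933, 0.852 and 0.632 in adult and 0.890, 0.614 and 0.923 in E16.5 brains. The 5′ ends gave 0.972, 0.960 and 0.956 in adult and 0.942, 0.945 and 0.944 in E16.5 brains, and on these the groups did not overlap. In adult brain 3, 475 of the 519 read ends at this C were 3′ ends. The authors' KO mean for adult brains is 0.933, which is the mean obtained when brain 3 alone is scored on its 5′ ends, and not the 0.873 of the 3 deposited fractions.

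At the 15 sites the 5′ fraction exceeded the 3′ fraction in the mean at 12 sites in adult and at 8 in E16.5 brains. By the base after the site, all 5 sites followed by A or C had the higher value on 5′ ends in both groups. Of the 7 sites followed by G, 5 did so in adult and 1 in E16.5 brains, and of the 3 followed by U, 2 did so in both groups. The difference passed 0.1 at LSU-C2409 (0.157 in adult and 0.135 in E16.5 brains), at LSU-C2791 in adult brains (0.105) and at LSU-A2774 in E16.5 brains (0.115). The fraction of LSU-C2791 was 0.948, 0.990 and 0.985 in adult and 0.966, 0.943 and 0.972 in E16.5 brains. The 5′ minus 3′ difference there came from adult brain 1, whose 3′ fraction of 0.685 stood against 0.992 and 0.972 in the other adult brains and 0.860, 0.947 and 0.947 in E16.5 brains. Over all listed sites the median of the 5′ minus 3′ difference was 0.044 before A, 0.089 before C, 0.004 before G and 0.001 before U in adult brains, and 0.083 before A, 0.127 before C, −0.020 before G and 0.026 before U in E16.5 brains. The part of the next base in these results was not tested.

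Counted on 5′ ends alone, 8 of the 15 sites had every adult fraction above every E16.5 fraction (55.6% of all listed sites) and LSU-C2848 alone had every adult fraction below (5.56% of all listed sites). On 3′ ends alone 2 sites, LSU-C2338 and LSU-G2411, lay above (25% of all listed sites) and 2, LSU-A2350 and LSU-A2802, below (4.63% of all listed sites). edgeR called 7 of the 15 sites on 5′ ends alone (58.3% of all listed sites), with LSU-C2848 lower in the adult and LSU-A2350, LSU-A2388, LSU-U2402, LSU-G2411, LSU-C2791 and LSU-U2824 higher. On 3′ ends alone it called 0 of the 15 (6.48% of all listed sites), with 2 at an unadjusted p under 0.05. LSU-G2411 was the 1 site that kept both groups apart in the same direction on 5′ ends, on 3′ ends and on their sum.

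The comparison of genotype rests on the authors' means, for which the values of single WT brains were not used here, and carries no test. In adult brains the KO mean was below the WT mean at 13 of the 15 sites, against 55.6% of all listed sites, and at E16.5 at 11 of 15, against 64.8% of all listed sites. The differences were small. Their median size was 0.009 in adult and 0.006 in E16.5 brains, and on these means none of the 15 sites passed 0.05 at either age, whereas 13 of all listed sites did so in adult and 16 in E16.5 brains. This rests on the corrected KO mean of LSU-C2409. With its 3 deposited fractions, adult KO brains lay at 0.873 against a WT mean of 0.952, a difference of −0.0795 that passed 0.05 and was the largest of the 15. On the authors' means the largest was at LSU-C2848, with 0.911 ± 0.005 in KO and 0.950 ± 0.008 in WT adult brains (authors' SD). At E16.5 this site had 0.947 ± 0.002 in KO and 0.961 ± 0.006 in WT brains. It was the 1 site of the 15 at which all 3 KO brains lay below the WT mean at both ages. This pattern was not counted over all listed sites, so that its background is not known. Differences over 2 times the larger of both SDs were found at 4 sites in adult brains, LSU-U2402, LSU-C2811, LSU-U2824 and LSU-C2848, and at 1 in E16.5 brains, LSU-C2848. Among all listed sites 18 did so in adult and 5 in E16.5 brains. The authors' SDs of the KO brains are smaller than the SDs used elsewhere here. At LSU-C2848 they are 0.0053 against 0.0065 in adult and 0.0023 against 0.0028 in E16.5 brains. At this site the larger SD was that of the WT brains, 0.0076 in adult and 0.0063 in E16.5 brains. It exceeded the wider KO SDs too, so the wider KO SDs alone leave the outcome there as it is. Elsewhere the rule may be easier to pass than with the wider SDs, with which it was not applied. The kind of the WT SDs was not checked.

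The WT means set the ages side by side without the deletions. Age and library preparation cannot be told apart in them either. The WT mean was higher in adult than in E16.5 brains at 13 of the 15 sites, with a median difference of 0.026, against 80.6% and 0.023 for all listed sites. LSU-G2411 had the largest difference of the 15 both in KO brains, 0.091, and in WT means, 0.121. LSU-C2848 was lower in the adult in WT means also, with a difference of −0.036 in KO and −0.011 in WT brains. With the deposited fractions of the KO brains, the signs of the KO and WT differences were opposed at LSU-C2338 and LSU-C2409, and alike at the other 13 sites. At LSU-C2338 the WT difference was only −0.00027, with authors' WT SDs of 0.021 in adult and 0.011 in E16.5 brains. With the authors' corrected KO mean, LSU-C2409 was higher in the adult by 0.054 in KO and by 0.063 in WT means. That KO difference sets a corrected adult mean against an uncorrected E16.5 mean. E16.5 brain 2, which was not corrected, had a 3′ fraction of 0.614 at this site, against 0.632 in adult brain 3. The difference with both ages corrected was not computed.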

How the data were processed

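RiboMeth-seq of 6 mouse brains was used. For every nucleotide of the rRNAs the authors deposited how many reads began (5′) or ended (3′) there, as raw counts, and the methylated fraction per brain, and a table of mean scores (RMS) with SDs for KO and WT brains, some corrected. RNA fragments of 20 to 40 nt were sequenced and mapped to curated rRNA sequences. The submitters' notes name cutadapt 2.0 and Bowtie2 2.3.4.1. A column without a heading (1, with 6 values) was not used. The fraction was recomputed (weights 1.0 to 0.5) and lay within 1e-05 of the deposited one in 90 of 90 cases. No replicate pair was the same library. Reads carry no molecular identifiers, so the SD between brains is given.

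Observed ends at all 108 listed sites were tested with edgeR 4.0.16 (quasi-likelihood, log expected ends as offset, Benjamini-Hochberg over all listed sites, threshold 0.05), after a test on simulated counts. With 3 brains against 3, an exact permutation test cannot go below p = 0.1, and none was used. Values were given for each brain where a site passed the threshold, had a 5′ and 3′ fraction over 0.1 apart or lay within 6 nt of another site, and for LSU-G2863 and sites without overlap between groups, chosen after their values were seen. The sites, lists and rules were chosen with earlier results of these data known, and the guide score after the matches had been seen. Alternatives used DESeq2 1.42.0 and limma 3.58.1 (pseudocount 0.01) among others. Host genes are from GENCODE vM21 on the same genome. The guide match of LSU-C2791 and its host are not reported here. R 4.3.3 and Python 3.11.15 were used.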

Additional observations from a re-analysis of the deposited data

Results flagged for a closer look

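LSU-U2824, matched by Snord34, lay on opposite sides of the WT mean at the 2 ages. The mean of the adult KO brains minus the adult WT mean was −0.00948, with all 3 brains below, and the mean of the E16.5 KO brains minus the E16.5 WT mean was 0.0276, with all 3 brains above. The difference between ages was not tested, since the WT values are the authors' means. The authors' SD of the WT brains at E16.5 was 0.0456, wider than the difference.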

How the results depend on the processing

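LSU-G2411 was called under 15 of 16 alternatives, 3′ ends alone being the exception, and kept its direction under all 16. The number of the 15 sites past the threshold was 7 with 5′ ends alone, 0 with 3′ ends alone, 3 with 2 neighbours on each side, 4 with DESeq2, 3 with TMM size factors and 2 with limma, and between 1 and 3 when 1 brain was left out. For all listed sites it was 29, and 63 with 5′ ends, 7 with 3′ ends, 35 with 2 neighbours, 47 with DESeq2, 36 with TMM factors, 32 with limma and between 10 (without adult brain 2) and 30 when 1 brain was left out. TMM factors moved the median log2 change of all listed sites by −0.19 to −1.06. Of 239 values for single sites, 206 kept direction and side of the threshold, 17 passed it newly, 1 fell short of it and 15 changed sign. Changes of sign with 3′ ends were those of LSU-A2350 (1.12), LSU-C2791 (0.50), LSU-A2802 (1.16) and LSU-C2848 (−0.0020). LSU-C2848 passed the threshold under 3 of 16 alternatives, which were 5′ ends alone, DESeq2 and limma. LSU-C2409 changed sign with 5′ ends (−0.58), TMM factors (−0.18) and limma (−0.0075), and ranged from −0.62 to 0.59 when 1 brain was left out. LSU-G2863 changed sign with limma (0.071) and ranged from −0.83 to 1.10 when 1 brain was left out, and LSU-C2811 from −1.13 to 0.0421. LSU-A2774 had under 1000 expected read ends in a brain and was not tested under that minimum. The cause of these changes was not tested. The median of the site means was 0.983 in adult brains with 5′ ends, 0.964 in adult and 0.938 in E16.5 brains with 3′ ends, and 0.950 in E16.5 brains with 2 neighbours. All 15 sites kept a mean of 0.75 or more in both groups under each alternative run.

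The values did not settle whether the replicate numbers pair the brains. Deviations of same-numbered brains from their group means correlated at 0.67, 0.446 and −0.182. Those of differently numbered brains correlated between −0.676 and 0.642. A replicate block gave 2 of the 15 sites past the threshold, with LSU-A2774 added, and 31 of all listed sites. Under the block LSU-C2409 (−0.0622) and LSU-G2863 (0.17) changed sign. Low read ends limit the most methylated sites, of which LSU-G2351 had 13 ends in an adult brain.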
